A study of Arabidopsis thaliana with 12 samples.

Results

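SAUR genes (SMALL AUXIN UP RNA) were followed in whole Arabidopsis thaliana seedlings moved to simulated shade. The members were the 52 SAUR gene IDs named for this comparison, out of 32833 genes in the raw table, and 46 of them had enough reads to be tested among 19711 genes. Of the 52 members, 34 lie in 7 tandem groups of neighbouring genes and 18 are dispersed. The groups were bbx28-5 in simulated shade, bbx28-5 in white light, Col-0 in simulated shade and Col-0 in white light, with 3 biological replicates each. Col-0 is the wild-type Columbia accession and bbx28-5 is a line in that ecotype named for BBX28, a B-box protein of light signalling. The sources used here do not give its lesion. All seedlings were cold-treated on agar and water, given a light pulse to start germination and grown for 2 days in white light with 10 h of light and 14 h of dark. They were then kept for 4 h under a green filter or left in white light. Simulated shade had a photosynthetically active radiation of 20 and white light of 90 µmol per square metre per second. Red light was 0.8 in shade and 9.13 in white light, far-red light was 5.5 in shade and 8.3 in white light, and blue light was 1.3 in shade and 8.1 in white light, in the same unit.

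SAUR genes form a large plant family of short, mostly intronless genes, many of which are switched on by auxin within minutes. Proteins of the SAUR19 type bind and inhibit PP2C.D phosphatases, which otherwise remove an activating phosphate from plasma membrane H+-ATPases. The active pumps acidify the cell wall, and the wall then loosens and the cell expands. In shade, stems of young seedlings elongate while cotyledons and leaves stop expanding, and SAUR genes are known to respond in opposite directions to light in these organs. Whole seedlings were sampled here, so fewer cells expressing a gene and less RNA per cell cannot be told apart.

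The SAUR19 subfamily shows how alike tandem neighbours are. The coding sequences of SAUR19 to SAUR24 were 87.7% to 95.2% identical, with a median of 91.2% over 15 pairs. The first 150 coding bases of the 6 genes, all on chromosome 5, are printed from the TAIR10.1 RefSeq genome, 5′ to 3′ on the coding strand, because counts of these genes depend on telling them apart. Capitals mark bases that differ from SAUR19 in a pairwise alignment or have no partner in it.
SAUR19: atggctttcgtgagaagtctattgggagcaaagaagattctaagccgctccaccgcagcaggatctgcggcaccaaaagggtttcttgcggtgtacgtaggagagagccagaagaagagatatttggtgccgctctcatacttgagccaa
SAUR20: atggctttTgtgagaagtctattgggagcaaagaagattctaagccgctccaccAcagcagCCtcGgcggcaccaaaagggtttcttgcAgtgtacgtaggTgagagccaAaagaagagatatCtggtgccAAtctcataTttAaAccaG
SAUR21: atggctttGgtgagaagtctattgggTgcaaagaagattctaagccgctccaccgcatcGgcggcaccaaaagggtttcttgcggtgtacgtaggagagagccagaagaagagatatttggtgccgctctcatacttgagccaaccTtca
SAUR22: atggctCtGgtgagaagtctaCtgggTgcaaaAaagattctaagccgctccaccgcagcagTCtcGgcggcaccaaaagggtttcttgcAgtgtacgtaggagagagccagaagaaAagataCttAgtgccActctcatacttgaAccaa
SAUR23: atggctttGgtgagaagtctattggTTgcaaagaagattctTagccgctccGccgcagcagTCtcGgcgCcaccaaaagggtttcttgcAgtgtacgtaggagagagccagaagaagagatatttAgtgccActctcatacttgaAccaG
SAUR24: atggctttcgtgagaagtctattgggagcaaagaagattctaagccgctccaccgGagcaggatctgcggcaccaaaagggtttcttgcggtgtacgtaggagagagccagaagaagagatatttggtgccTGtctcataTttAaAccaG
Over these 150 bases the capitals numbered 15 in SAUR20, 4 in SAUR21, 14 in SAUR22, 14 in SAUR23 and 7 in SAUR24, and SAUR21 also lacked 6 bases of SAUR19. In SAUR19, 18.5% of all 50-base windows of the transcript occurred elsewhere in the genome, against 0.573% to 7.11% in the other members of its cluster. A read of 50 bases from such a window could not be placed on 1 gene. Of the 100-base windows of these 6 genes, 0% occurred elsewhere, so the effect on counts depends on read length. The 50-base share was higher for SAUR67 (33.9%), SAUR75 (30%), SAUR63 (27.1%) and SAUR62 (23.2%). Of their 100-base windows 21.6%, 11.6%, 18.9% and 8.57% occurred elsewhere, and levels of these genes are uncertain for that reason. Identity within the other tandem groups was lower: 77.7% to 86.3% in the AT3G038 cluster, 45.6% to 89.4% in the AT1G294 cluster, 50.9% to 69% in the AT4G388 cluster and 43.8% to 63.9% in the AT4G347 cluster.

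The 250 bases before the gene start are printed for 4 members, because SAUR19, SAUR22 and SAUR68 had the largest rises in shade in Col-0, because SAUR20 is a neighbour that was not called, and because phytochrome-interacting factors (PIFs), which act in shade, bind short boxes in promoters. They run 5′ to 3′ toward the gene and come from the same TAIR10.1 genome: SAUR19 at chr5:5963406-5963655 (minus strand), SAUR22 at chr5:5975088-5975337 (minus strand), SAUR20 at chr5:5966786-5967035 (minus strand) and SAUR68 at chr1:10319482-10319731 (plus strand). Capitals mark a box that PIFs bind, the PBE-box CATGTG, which reads as CACATG on the other strand. They also mark an auxin response element, TGTCTC, which reads as GAGACA on the other strand.
SAUR19: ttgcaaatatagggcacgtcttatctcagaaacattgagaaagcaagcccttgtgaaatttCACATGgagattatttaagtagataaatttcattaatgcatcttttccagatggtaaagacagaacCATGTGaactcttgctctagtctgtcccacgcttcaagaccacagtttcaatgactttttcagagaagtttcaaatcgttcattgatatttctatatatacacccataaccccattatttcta
SAUR22: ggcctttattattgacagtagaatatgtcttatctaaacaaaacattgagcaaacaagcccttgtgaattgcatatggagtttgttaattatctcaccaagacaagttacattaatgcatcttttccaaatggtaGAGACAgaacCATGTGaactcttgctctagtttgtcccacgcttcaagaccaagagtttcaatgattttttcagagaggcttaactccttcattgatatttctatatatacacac
SAUR20: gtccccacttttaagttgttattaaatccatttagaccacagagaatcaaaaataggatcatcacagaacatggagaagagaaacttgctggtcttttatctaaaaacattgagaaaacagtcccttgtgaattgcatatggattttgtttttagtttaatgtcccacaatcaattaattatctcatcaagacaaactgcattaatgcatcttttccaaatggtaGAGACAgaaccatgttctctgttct
SAUR68: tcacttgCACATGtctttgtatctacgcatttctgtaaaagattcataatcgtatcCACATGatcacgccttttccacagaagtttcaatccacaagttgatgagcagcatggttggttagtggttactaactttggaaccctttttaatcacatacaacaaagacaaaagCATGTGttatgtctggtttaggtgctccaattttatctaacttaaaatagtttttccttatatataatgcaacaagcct
SAUR19 held 2 PBE-boxes, SAUR22 held 1 PBE-box and 1 auxin response element, SAUR20 held 1 auxin response element and no PBE-box, and SAUR68 held 3 PBE-boxes. The box did not follow the shade response through the AT5G180 cluster. SAUR23 and SAUR24, which rose in shade in both genotypes, held no PBE-box. SAUR21, which was not called in Col-0, held 1. Over all members, 29 of 52 windows (55.8%) held a PBE-box on either strand, against 11.1% of the 27443 windows of protein-coding genes. By tandem group, the box stood in 8 of 8 members of the AT1G294 cluster, 4 of 4 of the AT3G038 cluster, 3 of 6 of the AT5G180 cluster, 4 of 7 of the AT4G347 cluster, 3 of 4 of the AT4G388 cluster, 1 of 3 of the AT2G212 cluster and 1 of 2 of the AT1G755 pair, and in 5 of the 18 dispersed members. The G-box CACGTG stood in 1.92% of member windows and 6.49% of all windows. The element TGTCTC stood in 13.5% of member windows and 10.9% of all windows, and TGTCGG in 3.85% of member windows and 4.16% of all windows. No 6 bases can match more than 1 of these 4 boxes. Tandem copies share ancestry, so these counts are a description and the windows are not independent.

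Depth was 10614484 to 14298869 counts per library, and members together held 0.0483% to 0.0698% of the counts. Levels are given as CPM, counts per 1000000 counts of the library after trimmed-mean (TMM) scaling, and as CPM per kilobase of exon where genes are compared with each other. The BBX28 transcript was counted at 160, 210 and 144 CPM in bbx28-5 in shade, against 108, 104 and 99.8 CPM in bbx28-5 in white light. In Col-0 it was counted at 108, 115 and 104 CPM in shade and 72.4, 74.2 and 64.1 CPM in white light. It was higher in bbx28-5 in shade (log2 change 0.65 ± 0.123 SE, adjusted p = 0.00122) and in white light (0.57 ± 0.124, adjusted p = 0.0101), so transcript level does not show a loss of BBX28 and the genotype rests on the labels. Replicate 2 of bbx28-5 in shade stood apart: its log2 levels correlated at 0.967 with the mean of its group, against 0.984 to 0.994 for the other 11 libraries, across genes. In this library 43 of the 46 tested members were above both other libraries of its group, by a median of 1.6 times their mean, against 46.4% of all tested genes that were above both. Counts called over all tested members that use bbx28-5 in shade are therefore given also without it. Counts by tandem group, by promoter box, in both genotypes and in other gene lists include it. Without it SAUR61 and SAUR7 lost their call for shade in bbx28-5, and SAUR63, SAUR51 and SAUR78 were newly called. Markers of the photosynthetic shoot, root epidermis, endodermis and meristem were detected in every group, as whole seedlings would hold.

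The 52 members spanned a wide range of levels. SAUR14 had the highest mean over the 12 libraries at 77.7 CPM per kilobase of exon, followed by SAUR78 at 76, SAUR16 at 51.6, SAUR50 at 46.1, SAUR6 at 42, SAUR20 at 35.4 and SAUR32 at 34.4. These 7 genes made up 54.5% of the members' summed level per length. At the low end, 6 members had too few counts to test. SAUR13, SAUR2 and SAUR75 had 1 count each in all 12 libraries. SAUR54 had 3 counts summed over bbx28-5 in shade, 15 over bbx28-5 in white light, 7 over Col-0 in shade and 4 over Col-0 in white light. SAUR25 had 16 counts over bbx28-5 in shade and 0 over bbx28-5 in white light, and 15 over Col-0 in shade and 0 over Col-0 in white light. Against a floor of 3 counts over the white-light group, the shade counts of SAUR25 were 7.34-fold higher in bbx28-5 and 5.15-fold higher in Col-0. These values carry no counting error of the shade counts and are not lower bounds. By library the shade counts were 5, 7 and 4 in bbx28-5 and 8, 6 and 1 in Col-0. SAUR11 had 14 counts in bbx28-5 and 1 in Col-0 in shade, a ratio of 20.3 (95% interval 3.09 to 858), and 18 counts in bbx28-5 and 4 in Col-0 in white light, a ratio of 4.88 (1.61 to 19.8). These intervals cover counting error only, and SAUR11 and SAUR25 are named after their values were seen.

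**Figure D1:**
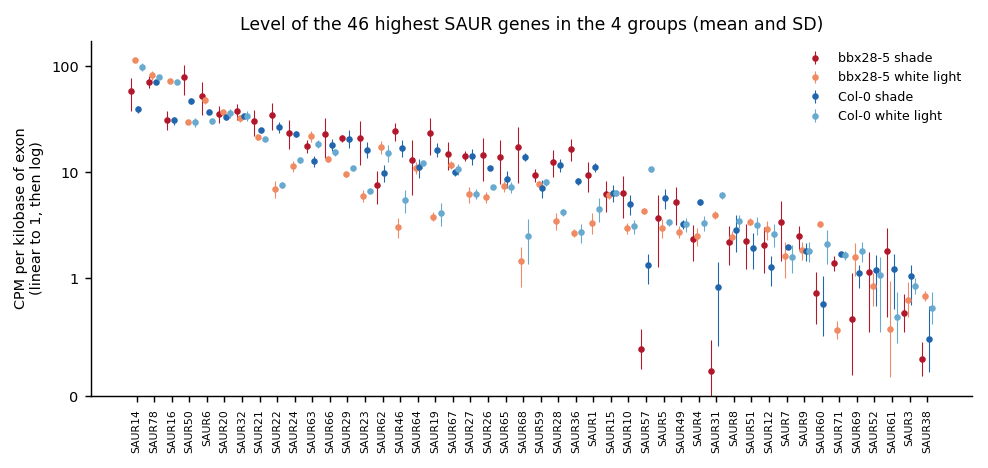
Mean level (points) and SD over 3 libraries (bars) of the 46 members with the highest level per length, in CPM per kilobase of exon on an axis that is linear up to 1 and logarithmic above it, for the 4 groups. SAUR14, SAUR78 and SAUR16 lead, and shade and white light lie far apart for SAUR57, SAUR31, SAUR68, SAUR46 and SAUR19.

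Shade moved many SAUR genes in both directions, and in several tandem groups neighbours did not move alike. In bbx28-5, 21 members were higher and 8 lower in shade at an adjusted p under 0.05, where 34.4% and 33.1% of all tested genes were called higher and lower. The median log2 change of the 46 tested members was 0.32, and that of all tested genes was 0. Without replicate 2 of bbx28-5 in shade, 19 members were higher and 11 lower, with a median of 0.22. That fit called 36.8% of all tested genes higher and 36.3% lower. In Col-0, 15 members were higher and 8 lower, where 29% and 30.4% of all tested genes were called, with a median of 0.18 for the members and -0.02 for all tested genes. The share of members called higher in bbx28-5 was 45.7%, above the 34.4% of all tested genes. Without replicate 2 of bbx28-5 in shade fewer members and more of all tested genes were called higher, as given above. In Col-0 the share was 32.6%, close to the 29% of all tested genes. Leaving out single libraries gave 12 to 19 members called higher in Col-0. The share called lower, 17.4% in each genotype, was below that of all tested genes. The differences between these shares were not tested. The 14 members that rose in both genotypes were 14 of the 21 that rose in bbx28-5 and of the 15 that rose in Col-0. They were 30.4% of the tested members, where 25.9% of all tested genes rose in both. A further 6 members fell in both, and none was called in opposite directions. No all-gene share was computed for either, so these are counts only. Scaling by total counts changed the split in bbx28-5 to 17 higher and 13 lower, with all-gene medians lower by 0.34 on the log2 scale. Under that scaling 23.6% of all tested genes were called higher and 45.9% lower. The summed level of all 52 members was 558, 884 and 575 CPM in bbx28-5 in shade and 565, 566 and 561 CPM in bbx28-5 in white light. It was 572, 551 and 516 CPM in Col-0 in shade and 536, 543 and 545 CPM in Col-0 in white light, so the groups overlapped in each genotype.

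**Figure D2:**
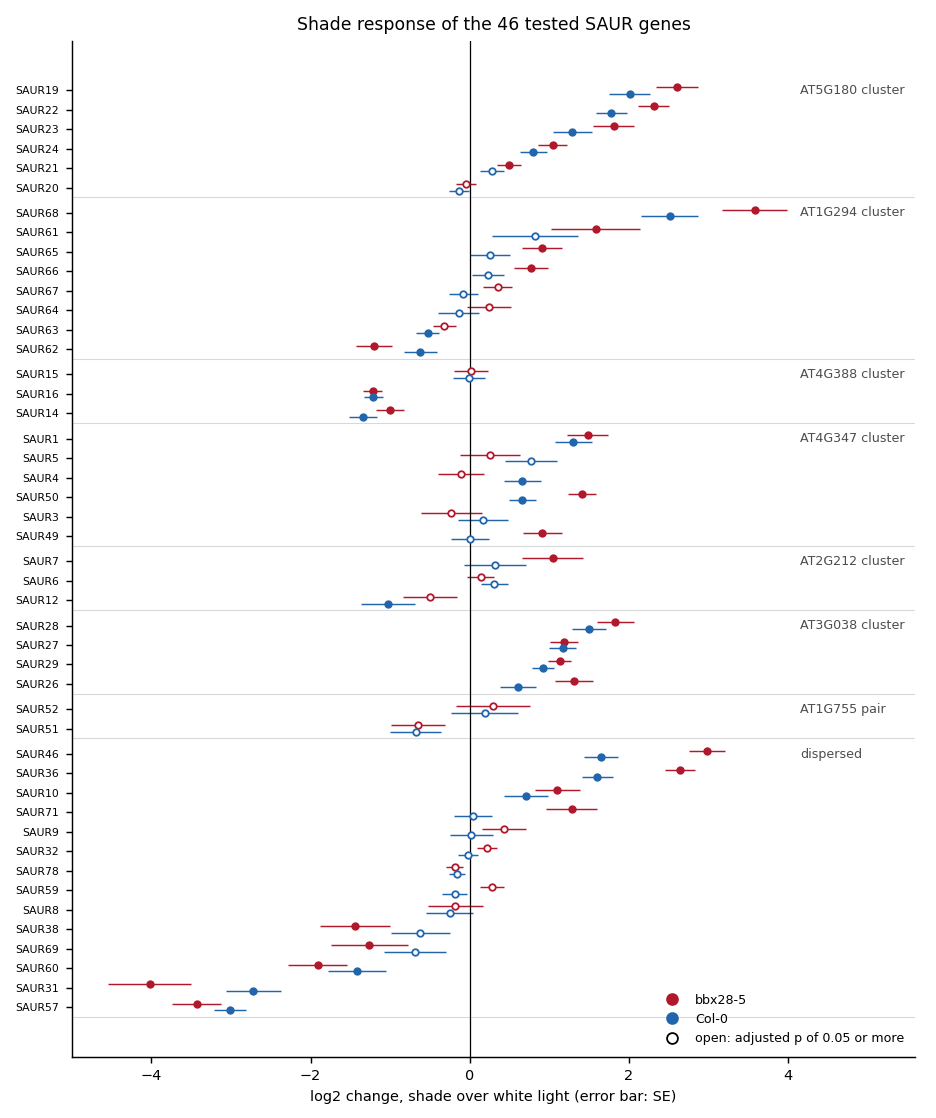
Log2 change in shade over white light (x axis) with its SE (bars) for the 46 tested members, by tandem group, in bbx28-5 (red) and Col-0 (blue). Filled points had an adjusted p under 0.05. The points run from -4.02 for SAUR31 to 3.58 for SAUR68, both in bbx28-5.

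The AT5G180 cluster holds SAUR19 to SAUR24, the genes whose overexpression lengthens hypocotyls and acidifies walls. In bbx28-5, 5 of its 6 members rose in shade and none fell, with a median log2 change of 1.42. In Col-0, 4 of 6 rose and none fell, with a median of 1.05. Of all tested genes 34.4% rose and 33.1% fell in shade in bbx28-5, and 29% rose and 30.4% fell in Col-0. The counts of the other tandem groups below stand against the same shares, and no difference from these shares was tested. SAUR22 (AT5G18050) had 21.1, 34.5 and 22.5 CPM in bbx28-5 in shade, against 6.26, 4.54 and 4.73 CPM in bbx28-5 in white light. In Col-0 it had 20.6, 21.6 and 17 CPM in shade, against 5.4, 6.14 and 5.66 CPM in white light. No shade library overlapped a white-light library, and the log2 change was 2.31 ± 0.196 in bbx28-5 (adjusted p = 1.18e-07) and 1.78 ± 0.191 in Col-0 (adjusted p = 1.92e-06). SAUR19 (AT5G18010) had 11, 21.4 and 12.2 CPM in bbx28-5 in shade and 2.18, 2.42 and 2.67 CPM in white light, and in Col-0 12.1, 9.15 and 9.9 CPM in shade and 2.43, 3.3 and 2.06 CPM in white light. Its log2 change was 2.61 ± 0.264 in bbx28-5 and 2.01 ± 0.258 in Col-0, a 6.1-fold and a 4.02-fold rise. SAUR20 (AT5G18020), 1 of the 6, did not follow them. It had 14.7, 21.1 and 17.1 CPM in bbx28-5 in shade and 17.8, 18 and 18.8 CPM in white light, and in Col-0 17.4, 15.4 and 16.2 CPM in shade and 19.3, 16 and 18.5 CPM in white light. Its groups overlapped in each genotype, with log2 changes of -0.05 ± 0.129 in bbx28-5 (adjusted p = 0.761) and -0.13 ± 0.125 in Col-0 (adjusted p = 0.374). Under total-count scaling SAUR20 was called lower in bbx28-5 (-0.39, adjusted p = 0.00854). SAUR23, SAUR24 and SAUR21 lay between, with changes of 1.81, 1.04 and 0.49 in bbx28-5 and 1.29, 0.80 and 0.28 in Col-0, of which only that of SAUR21 in Col-0 did not pass (adjusted p = 0.109). Under total-count scaling SAUR21 did not pass in bbx28-5 either (0.14, adjusted p = 0.349).

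**Figure D3:**
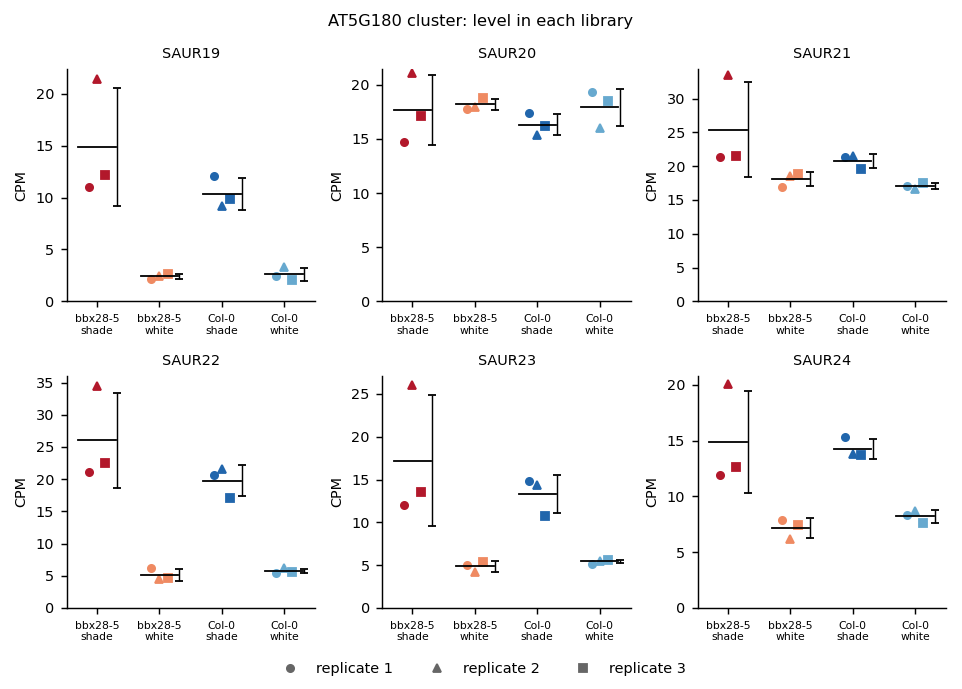
CPM of SAUR19 to SAUR24 in each of the 12 libraries, by group, with the group mean (line) and SD (bar at the right of each group) over 3 libraries. SAUR19 and SAUR22 separate shade from white light in each genotype, SAUR20 does not, and replicate 2 of bbx28-5 in shade (triangle) is the highest point in every panel.

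In white light SAUR20 was the highest of this cluster per length, with 36.7 CPM per kilobase in bbx28-5 and 36.2 in Col-0, against 6.93 and 7.67 for SAUR22. In shade the order was closer, with 35.6 in bbx28-5 and 33 in Col-0 for SAUR20 and 34.9 and 26.5 for SAUR22. A ratio of counts within a library needs no scaling between libraries. The count ratio of SAUR22 to SAUR20 was 1.44, 1.63 and 1.32 in bbx28-5 in shade, against 0.351, 0.253 and 0.252 in white light. In Col-0 it was 1.18, 1.41 and 1.05 in shade, against 0.28, 0.385 and 0.306 in white light. SAUR22 thus changed relative to SAUR20 by more than the spread of libraries in each genotype, under any scaling. These gene pairs were chosen after their values were seen and are given with no test.

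**Figure D4:**
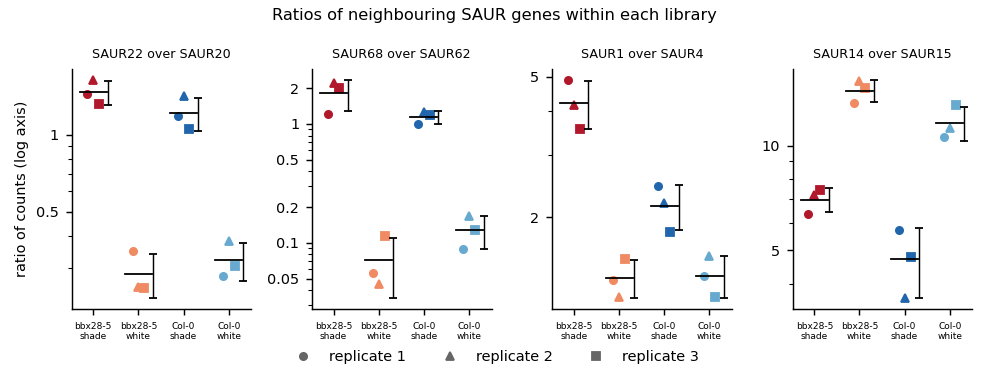
Ratio of the counts of 2 genes of the same tandem cluster in each library (log axes), by group, with group mean (line) and SD (bar) over 3 libraries. Shade libraries lie above white-light libraries for SAUR22 over SAUR20, SAUR68 over SAUR62 and SAUR1 over SAUR4, and below them for SAUR14 over SAUR15.

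The AT1G294 cluster holds the SAUR63 subfamily, whose members promote elongation of hypocotyls and stamen filaments. It was split: 4 of 8 members rose and 1 fell in bbx28-5, and 1 rose and 2 fell in Col-0. SAUR68 (AT1G29490) had 7.4, 19 and 8.77 CPM in bbx28-5 in shade and 0.885, 0.682 and 1.38 CPM in white light. In Col-0 it had 9.94, 9.87 and 8.48 CPM in shade and 1.15, 2.53 and 1.33 CPM in white light. It had the largest rise of any tested member, at a log2 change of 3.58 ± 0.406 in bbx28-5 (adjusted p = 2.48e-06) and 2.51 ± 0.364 in Col-0 (adjusted p = 3.78e-05). SAUR62 fell, by 1.2 in bbx28-5 (adjusted p = 0.00031) and 0.62 in Col-0 (adjusted p = 0.0211) on the log2 scale. The count ratio of SAUR68 to SAUR62 was 1.81 ± 0.525 in shade and 0.0715 ± 0.0374 in white light in bbx28-5, and 1.15 ± 0.142 in shade and 0.128 ± 0.039 in white light in Col-0 (SD, n = 3 each). SAUR63 (AT1G29440), the highest of the cluster per length, had 10.8, 12 and 8.95 CPM in bbx28-5 in shade and 11.6, 14.6 and 13.3 CPM in white light, which overlap. It had 8.54, 6.84 and 7.62 CPM in Col-0 in shade and 11.3, 12.1 and 10.1 CPM in white light, which do not. Its change was -0.32 ± 0.144 in bbx28-5 (adjusted p = 0.06; -0.43 with adjusted p = 0.0128 without replicate 2) and -0.53 ± 0.144 in Col-0 (adjusted p = 0.00546). SAUR63 lies wholly within AT1G29435 on the opposite strand, and no source used here says whether reads were counted by strand, so its counts may hold reads of both genes. SAUR65, SAUR66 and SAUR61 rose in bbx28-5 by 0.91, 0.77 and 1.58, and had 0.26, 0.23 and 0.82 in Col-0, where none passed. Replicate 2 bears on this: without it, SAUR61 did not pass in bbx28-5 (1.04, adjusted p = 0.114) and SAUR66 had 0.38 (adjusted p = 0.0079). Under total-count scaling neither passed in bbx28-5 (1.23 with adjusted p = 0.058, and 0.41 with adjusted p = 0.0696).

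The AT4G388 cluster went the other way, with 2 of 3 tested members lower in shade and none higher in each genotype. SAUR14 (AT4G38840), known for opening cotyledons when overexpressed, had 25.6, 47.2 and 28.1 CPM in bbx28-5 in shade and 65.1, 66 and 70.2 CPM in white light. In Col-0 it had 24.5, 21.6 and 22.1 CPM in shade and 56.4, 53.2 and 62.6 CPM in white light. Its groups did not overlap, and the log2 change was -1.0 ± 0.174 in bbx28-5 (adjusted p = 0.00015) and -1.34 ± 0.175 in Col-0 (adjusted p = 1.46e-05). SAUR16 (AT4G38860) had 28.7, 40.3 and 29.7 CPM in bbx28-5 in shade and 77.5, 78.3 and 73.8 CPM in white light, and in Col-0 30.1, 35.5 and 31.1 CPM in shade and 77.2, 69.9 and 76.3 CPM in white light. It fell by 1.22 in bbx28-5 (SE 0.123, adjusted p = 7.6e-07) and by 1.21 in Col-0 (SE 0.122, adjusted p = 1.06e-06) on the log2 scale. SAUR15, the classical auxin-induced gene SAUR-AC1, had changes of 0.02 in bbx28-5 (adjusted p = 0.938) and -0.01 in Col-0 (adjusted p = 0.973). The summed level of 4 photosynthetic shoot genes moved in the same direction, at 24700 to 32800 CPM in shade and 39700 to 41000 CPM in white light in bbx28-5, and 17000 to 19100 CPM in shade and 36800 to 41100 CPM in white light in Col-0. All 4 were called lower in Col-0 and 3 of the 4 in bbx28-5. The exception in bbx28-5 was CA1, with 6360, 8540 and 6740 CPM in shade and 6240, 6330 and 6850 CPM in white light. None of these 4 genes was at 0, and their part in the fall of SAUR14 and SAUR16 was not tested.

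In the AT4G347 cluster 3 of 6 tested members rose and none fell in each genotype, but the members differed. SAUR50 (AT4G34760), a light-induced gene of cotyledons that acts in their opening, had 53.1, 95.7 and 61.4 CPM in bbx28-5 in shade and 26.3, 26.8 and 26.1 CPM in white light. In Col-0 it had 44.3, 42.4 and 38.9 CPM in shade and 26, 24.3 and 29.3 CPM in white light. The change was 1.41 ± 0.172 in bbx28-5 (adjusted p = 5.31e-06) and 0.66 ± 0.17 in Col-0 (adjusted p = 0.00421). SAUR50 and SAUR14 thus moved in opposite directions in shade, and each did so beyond the spread of its libraries. SAUR1 (AT4G34770) had 4.79, 9.12 and 6.92 CPM in bbx28-5 in shade and 3, 1.89 and 2.5 CPM in white light, and in Col-0 8.67, 8.59 and 7.27 CPM in shade and 2.77, 4.3 and 2.93 CPM in white light. Its changes were 1.48 ± 0.258 and 1.30 ± 0.234 (adjusted p = 0.000152 and 0.000255). SAUR4 had -0.11 in bbx28-5 (adjusted p = 0.754) and rose in Col-0 (0.66, adjusted p = 0.0246), SAUR49 rose in bbx28-5 (0.91, adjusted p = 0.00427) and had 0.00 in Col-0 (adjusted p = 0.998), and the genotype difference in shade response passed for neither (adjusted p = 0.203 and 0.105).

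The AT3G038 cluster was the most uniform in direction, with 4 of 4 members higher in shade in each genotype. It holds SAUR26 to SAUR29, known for natural variation in growth with temperature. The log2 changes lay between 1.13 and 1.83 in bbx28-5 and between 0.61 and 1.5 in Col-0. SAUR28 (AT3G03830) had 6.42, 9.7 and 5.81 CPM in bbx28-5 in shade and 1.63, 2.35 and 2.15 CPM in white light, and in Col-0 8, 6.68 and 6.13 CPM in shade and 2.56, 2.53 and 2.26 CPM in white light. SAUR29 (AT3G03820), the highest per length, had 15, 17.4 and 15.4 CPM in bbx28-5 in shade and 7.69, 7.2 and 6.97 CPM in white light, and in Col-0 19.1, 15.3 and 13.1 CPM in shade and 8.36, 7.98 and 8.79 CPM in white light. Shade and white-light libraries did not overlap for either gene. In the AT2G212 cluster SAUR7 rose in bbx28-5 (1.04, adjusted p = 0.0277, and 0.48 with adjusted p = 0.22 without replicate 2), and SAUR12 (AT2G21220) fell in Col-0. SAUR12 had 0.87, 2.42 and 1.85 CPM in bbx28-5 in shade and 2.72, 2.65 and 1.81 CPM in white light, which overlap, and 0.8, 1.35 and 0.997 CPM in Col-0 in shade and 2.09, 2.69 and 1.66 CPM in white light, with changes of -0.50 (adjusted p = 0.202) and -1.03 (adjusted p = 0.0179). In the AT1G755 pair neither SAUR51 nor SAUR52 was called in either genotype, and SAUR51 (AT1G75580) had 2.5, 2.77 and 1.02 CPM in bbx28-5 in shade and 3.47, 2.95 and 3.18 CPM in white light, and 2.2, 1.03 and 2.21 CPM in Col-0 in shade and 2.5, 2.76 and 3.59 CPM in white light.

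The largest falls in shade were those of SAUR57 and SAUR31, which are dispersed members. As a group the dispersed members had a median log2 change of 0.02 in bbx28-5 and -0.18 in Col-0. In bbx28-5, 4 of 14 tested dispersed members rose (28.6%) and 5 fell (35.7%), near the 34.4% and 33.1% of all tested genes. In Col-0, 3 rose and 3 fell (21.4% each), against 29% and 30.4% of all tested genes. SAUR57 (AT3G53250) had 0.435, 0.462 and 0.185 CPM in bbx28-5 in shade and 3.61, 3.86 and 4.13 CPM in white light, and in Col-0 1, 1.59 and 0.997 CPM in shade and 9.11, 10.2 and 9.59 CPM in white light. The 4 groups did not overlap at all, and shade lowered it by 3.43 ± 0.309 in bbx28-5 (adjusted p = 2.26e-07) and 3.01 ± 0.203 in Col-0 (adjusted p = 1.95e-08) on the log2 scale. SAUR31 (AT4G00880) had 0, 0.115 and 0.461 CPM in bbx28-5 in shade and 3.27, 3.48 and 3.87 CPM in white light, and in Col-0 0.333, 0.955 and 1.21 CPM in shade and 5.19, 5.99 and 5.26 CPM in white light. Its change was -4.02 ± 0.521 in bbx28-5 and -2.72 ± 0.344 in Col-0. The bbx28-5 value rests on 6 counts in shade and 139 in white light, a ratio of 0.0594 (95% interval 0.0214 to 0.133, counting error only). SAUR31 shares 516 bases with AT4G00883 on the opposite strand, so its counts are uncertain in the same way as those of SAUR63. Among the highest dispersed members, SAUR78 (AT1G72430), which binds ethylene receptors, had 79.7, 98.8 and 80.8 CPM in bbx28-5 in shade and 97, 109 and 89.5 CPM in white light, and in Col-0 89.1, 83.2 and 84.1 CPM in shade and 98.5, 97.7 and 91.1 CPM in white light. It did not pass in bbx28-5 (-0.19, adjusted p = 0.123) or Col-0 (-0.16, adjusted p = 0.196). Without replicate 2 of bbx28-5 in shade it was called lower in both, at -0.3 (adjusted p = 0.00174) and -0.16 (adjusted p = 0.0399). SAUR32 (AT2G46690), a gene of the apical hook, had 29.3, 40.3 and 31.7 CPM in bbx28-5 in shade and 29.5, 26.4 and 30.8 CPM in white light, and in Col-0 29.7, 30.3 and 30.3 CPM in shade and 27, 30.6 and 33.9 CPM in white light. SAUR59 (AT3G60690) had 11.6, 12.6 and 9.51 CPM in bbx28-5 in shade and 9.19, 8.71 and 9.81 CPM in white light, and in Col-0 6.67, 8.83 and 9.69 CPM in shade and 8.63, 9.9 and 10.1 CPM in white light. Neither of the last 2 genes was called.

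The clearest difference between the genotypes in shade response was in SAUR46 and SAUR36. SAUR46 (AT2G37030) had 14.1, 20.1 and 15.4 CPM in bbx28-5 in shade and 2.25, 1.59 and 2.41 CPM in white light. In Col-0 it had 11.3, 13.9 and 9.69 CPM in shade and 3.3, 4.76 and 3.06 CPM in white light. Shade raised it by 2.98 ± 0.229 in bbx28-5 and 1.65 ± 0.209 in Col-0, a 7.92-fold and a 3.14-fold rise, and the difference between these responses was 1.33 ± 0.318 (adjusted p = 0.0181). Both lights entered this difference: the mean of SAUR46 was 16.5 CPM in bbx28-5 and 11.6 CPM in Col-0 in shade, and 2.08 and 3.71 CPM in white light. Over 20 alternatives its log2 change between genotypes was 0.2 to 0.64 in shade and -0.95 to -0.62 in white light. The white-light change was not called in the main fit. SAUR36 (AT2G45210), a gene known for auxin-linked leaf senescence, had 19.3, 24.4 and 15.3 CPM in bbx28-5 in shade and 3, 2.95 and 3.44 CPM in white light. In Col-0 it had 8.94, 10.5 and 9.69 CPM in shade and 3.24, 3.84 and 2.53 CPM in white light. Shade raised it by 2.64 ± 0.193 in bbx28-5 and 1.60 ± 0.194 in Col-0, and the responses differed by 1.04 ± 0.279 (adjusted p = 0.0312). On TMM-scaled CPM, white-light libraries of SAUR36 overlapped between the genotypes and shade libraries did not, while those of SAUR46 overlapped in neither light. These were the 2 members called higher for the difference of responses and none was called lower, where 6.52% of all tested genes were called higher and 3.79% lower. At an unadjusted p under 0.05 in the edgeR test, 6 members were higher and 0 lower, with no all-gene share computed. DESeq2 called 3 members higher and 0 lower after adjustment, and 8.39% of all tested genes higher and 4.82% lower. Without replicate 2 of bbx28-5 in shade the differences were 1.17 (adjusted p = 0.00499) for SAUR46 and 0.85 (adjusted p = 0.0149) for SAUR36, and SAUR50 was then called as well (0.46, adjusted p = 0.008). In that fit SAUR62, SAUR5 and SAUR6 were called lower, at -0.88, -1.16 and -0.48 (adjusted p = 0.0188, 0.0465 and 0.00224). It called 13.6% of all tested genes higher and 8.38% lower. With total-count scaling, which lowered the all-gene median by 0.29, the difference for SAUR36 did not pass (0.74, adjusted p = 0.0643) and that for SAUR46 did (1.04, adjusted p = 0.0325).

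**Figure D5:**
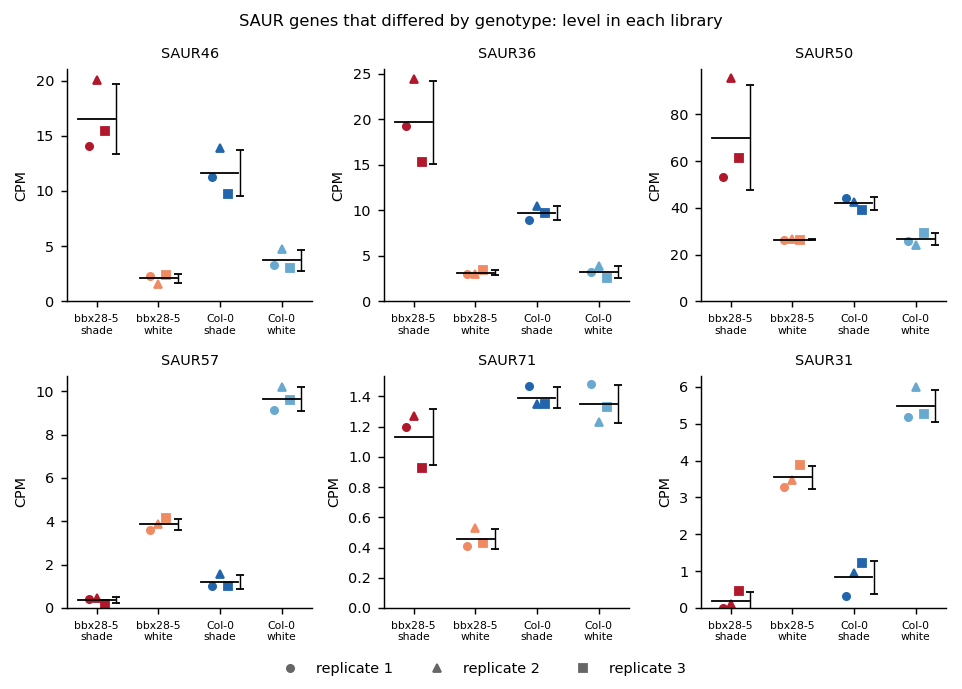
CPM of 6 members that differed between the libraries labelled bbx28-5 and Col-0 in at least 1 light, in each of the 12 libraries, with group mean (line) and SD (bar) over 3 libraries. The genotypes' libraries do not overlap in shade for SAUR36 and SAUR50, which overlap in white light, and do not overlap in either light for SAUR57, SAUR46 and SAUR71, although SAUR71 was not called in shade (log2 change -0.31, adjusted p = 0.437).

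In white light few members differed between the genotypes, and the direction rests on the labels. In bbx28-5 1 member was higher and 2 were lower than in Col-0, where 3.8% of all tested genes were called higher and 6.08% lower, and the members' median was -0.09. SAUR57 had 3.61, 3.86 and 4.13 CPM in bbx28-5 and 9.11, 10.2 and 9.59 CPM in Col-0, a log2 change of -1.32 ± 0.172 (adjusted p = 0.000285). SAUR71, a gene of the stomatal lineage, had 0.408, 0.53 and 0.43 CPM in bbx28-5 and 1.48, 1.23 and 1.33 CPM in Col-0, a change of -1.55 ± 0.289 (adjusted p = 0.00384), and is named after its values were seen. SAUR6 (AT2G21210) had 68.4, 61.6 and 71 CPM in bbx28-5 and 41, 40.9 and 45.2 CPM in Col-0, a change of 0.66 ± 0.171 (adjusted p = 0.0254). The genotypes did not overlap for any of the 3 genes. SAUR6 shares 176 bases on the same strand with SAUR7, and its call was lost when any 1 of the 6 white-light libraries was left out, with an adjusted p up to 0.102. Some seed RNA also differed: SESA3, a seed albumin gene, had 54.4, 18.8 and 56.4 CPM in bbx28-5 and 0.405, 0 and 0.599 CPM in Col-0 in white light. Of 3 seed genes 2 were called higher in bbx28-5. CRA1, the seed gene not called, had 74.3, 70.1 and 96.5 CPM in bbx28-5 and 91.9, 54.4 and 39.3 CPM in Col-0, which overlap. The 3 seed genes together reached 96.4 to 166 CPM in bbx28-5 and 43.5 to 94.2 CPM in Col-0. In shade these sums were 76.1 to 443 CPM in bbx28-5 and 40.5 to 106 CPM in Col-0. Some root markers differed too. In white light 4 root epidermis genes summed to 45.8 to 52.1 CPM in bbx28-5 and 71.1 to 93.1 CPM in Col-0. Of these, 2 of 4 were called lower in bbx28-5, and none of the 4 was at 0. CASP1, a gene of the root endodermis, had 17.2, 18.6 and 17.6 CPM in bbx28-5 and 34.9, 40.1 and 28.2 CPM in Col-0 in white light, a log2 change of -0.95 (adjusted p = 0.000228). SCR, the other endodermis gene, went the other way, with 56.7, 61.2 and 54.1 CPM in bbx28-5 and 45.5, 45.5 and 45.5 CPM in Col-0. Its log2 change of 0.33 was not called. The 2 endodermis genes together reached 71.8 to 79.8 CPM in bbx28-5 and 73.6 to 85.6 CPM in Col-0. Of the 2 root meristem genes 0 were called in white light, with a median log2 change of -0.09. The 4 photosynthetic shoot genes, of which none was called in white light, reached 39700 to 41000 CPM in bbx28-5 and 36800 to 41100 CPM in Col-0. The part of these seed, root and shoot markers in the genotype differences was not tested.

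In shade more members were called between the genotypes, and most of those calls depended on 1 library or on the scaling. In bbx28-5 9 members were higher and 3 lower than in Col-0, where 20.9% of all tested genes were called higher and 14.5% lower. The members' median was 0.19, against 0.03 for all tested genes. Without replicate 2 of bbx28-5 in shade 3 members were higher and 4 lower with a median of -0.05. Of all tested genes 25.5% were then called higher and 17.9% lower. Total-count scaling gave 2 members higher and 7 lower, against 7.65% and 33.2% of all tested genes. It lowered the median of all genes by 0.30. SAUR36 and SAUR50 were higher under each of these settings. SAUR36 was higher by 1.01 ± 0.169 (adjusted p = 0.0005), by 0.83 without replicate 2 and by 0.70 under total-count scaling. SAUR50 was higher by 0.74 ± 0.168 (adjusted p = 0.00387), by 0.45 without replicate 2 and by 0.42 under total-count scaling. SAUR57 and SAUR4 were lower under each of them, by 1.73 and 1.15 (adjusted p = 0.00289 and 0.00391). SAUR4 (AT4G34800) had 0.979, 2.19 and 1.94 CPM in bbx28-5 in shade and 3.53, 3.9 and 3.99 CPM in Col-0 in shade. SAUR65 (AT1G29460) had 8.7, 19 and 9.97 CPM in bbx28-5 in shade and 9.4, 6.68 and 7.2 CPM in Col-0 in shade, which overlap, with a change of 0.68 (adjusted p = 0.0447) that was 0.26 (adjusted p = 0.233) without replicate 2. SAUR6 had 61.5, 102 and 57.6 CPM in bbx28-5 in shade and 55, 53.5 and 48.9 CPM in Col-0 in shade, with a change of 0.49 (adjusted p = 0.0381) that was 0.18 (adjusted p = 0.0778) without replicate 2. The calls of SAUR63, SAUR67, SAUR49, SAUR31 and SAUR46 also did not pass without that library. SAUR14 was higher by 0.56 and kept its call without that library. Its call was lost under total-count scaling, with only the 6 libraries compared, and without replicate 2 or 3 of Col-0 in shade. In the same comparison 3 of the 4 photosynthetic shoot genes were called higher in bbx28-5, with sums of 24700 to 32800 CPM in bbx28-5 and 17000 to 19100 CPM in Col-0. Of the 4 root epidermis genes 3 were called lower. The 4 genes summed to 48.9 to 56.7 CPM in bbx28-5 and 47.7 to 84.3 CPM in Col-0. CASP1 was lower by 0.52 on the log2 scale (adjusted p = 0.00348), and SCR by 0.22, which was not called. The part of these markers in the shade calls was not tested.

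Genes around the SAUR proteins in the growth pathway are given by group. Their counts stand against 34.4% of all tested genes called higher and 33.1% lower in shade in bbx28-5, and 29% higher and 30.4% lower in Col-0. Of 8 auxin receptor genes, 4 rose and 1 fell in bbx28-5 and 5 rose in Col-0. TIR1, an F-box auxin receptor, was higher in shade by 1.29 ± 0.116 in bbx28-5 and 0.90 ± 0.115 in Col-0 (adjusted p = 2.26e-07 and 1.12e-05). Of 5 activating auxin response factors, 1 rose and 2 fell in bbx28-5 and 1 rose and 1 fell in Col-0. ARF8, a factor known in hypocotyl growth, fell by 1.75 in bbx28-5 and by 1.0 in Col-0 on the log2 scale. Among 8 light and brassinosteroid transcription factors upstream of SAUR genes, 5 rose and 2 fell in each genotype. PIF4 rose by 1.0 in bbx28-5 and 0.34 in Col-0, a difference of responses of 0.66 ± 0.126 (adjusted p = 0.00601), while PIF7 fell by 1.96 in bbx28-5 and by 2.20 in Col-0. Of the 9 PP2C.D phosphatase genes, whose products SAUR proteins inhibit, 5 rose and 3 fell in bbx28-5 and 5 rose and 2 fell in Col-0. PP2C-D2 rose by 1.60 in bbx28-5 and 0.94 in Col-0, and PP2C-D1, the phosphatase best known in the apical hook, fell by 0.40 in bbx28-5 and by 0.62 in Col-0. Of 11 plasma membrane H+-ATPase genes, 9 were tested, of which 4 rose and 2 fell in bbx28-5 and 2 rose and 2 fell in Col-0. AHA2, a major pump of roots and shoots, was lower in bbx28-5 than in Col-0 by 0.72 in white light (adjusted p = 0.00113) and by 0.52 in shade (adjusted p = 0.00296), beside the lower levels of CASP1 and of some root epidermis markers given above, whose part in it was not tested. Of 27 other annotated SAUR genes, 13 were tested, of which 4 rose and 3 fell in bbx28-5 and 1 rose and 4 fell in Col-0, with medians of 0.22 and 0.36.

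Members with and without a PBE-box in the 250-base window were also set side by side. Of the 25 tested members with the box, 12 rose and 2 fell in bbx28-5 and 9 rose and 3 fell in Col-0. Of the 21 tested members without it, 9 rose and 6 fell in bbx28-5 and 6 rose and 5 fell in Col-0. With the box, 48% were called higher and 8% lower in bbx28-5 and 36% higher and 12% lower in Col-0, against 42.9% and 28.6% in bbx28-5 and 28.6% and 23.8% in Col-0 without it. Over all tested genes these shares were 34.4% and 33.1% in bbx28-5 and 29% and 30.4% in Col-0. The difference between members with and without the box was not tested. SAUR46 and SAUR36, the members that differed between genotypes in shade response, held no PBE-box, G-box or auxin response element of the 4 searched, and neither did SAUR57. A match of these letters is a description of the window and does not show binding.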

How the data were processed

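RNA from whole seedlings was sequenced in 12 stranded mRNA libraries, 3 for each of the 4 groups given by the labels. The authors deposited a table of raw read counts per gene and a filtered, normalized table on a log2 CPM scale. The submitters' processing notes name edgeR, HTSeq, SAMtools, HISAT and FastQC and the build TAIR10, without versions, and no source used here states a strand setting. The deposited log2 values were used only as a gene list and were recomputed from the raw counts to within 5e-14.

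Raw counts were tested with edgeR 4.0.16 (R 4.3.3): TMM scaling, filterByExpr, 1 quasi-likelihood fit over all 12 libraries, and Benjamini-Hochberg adjustment over 19711 genes at 0.05. The fit was tested on simulated data. Log2 changes carry an SE taken from the F statistic. Alternatives used other scalings, filters, DESeq2 1.42.0, limma 3.58.1, the replicate number as a block and each library left out. Replicates are biological per the labels. Residuals of libraries with the same number correlated at -0.16 to 0.131, so the numbers do not pair libraries. Exon lengths, coordinates and sequences come from RefSeq TAIR10.1, to which 32548 gene IDs matched. AT1G29510 carries the names SAUR67 and SAUR68 there and is called SAUR67.

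The members, the gene lists and the tests were chosen with earlier results of these data known. Values of every library are given for the highest member per length and the smallest p in each tandem group, the 4 highest dispersed members, and the 3 largest called rises and falls of each comparison among members whose mean log2 CPM was 1 or more.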

Additional observations from a re-analysis of the deposited data

Results flagged for a closer look

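2 results were taken up because the shade response differed between the genotypes in a test of that difference over all 19711 genes. For SAUR46 the log2 response to shade was larger in bbx28-5 than in Col-0 by 1.33 (2.98 in bbx28-5 and 1.65 in Col-0, adjusted p = 0.0181). Over 19 alternatives the difference ranged from 1.04 to 1.47 with adjusted p from 0.00242 to 0.0593, and it was lost without replicate 2 of bbx28-5 in white light or replicate 2 of Col-0 in white light. For SAUR36 it was larger by 1.04 (2.64 in bbx28-5 and 1.60 in Col-0, adjusted p = 0.0312). Over 19 alternatives the difference ranged from 0.74 to 1.2 with adjusted p from 0.0111 to 0.0899, and it was lost in 9 of them. On TMM-scaled CPM, all 3 bbx28-5 shade libraries of both genes were above all 3 Col-0 shade libraries. For SAUR46 the closest libraries were at 14.1 CPM in bbx28-5 and 13.9 CPM in Col-0. Its call for genotype in shade was lost in 12 of 20 alternatives, total-count scaling among them.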

How the results depend on the processing

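Of the members called in the main comparisons, 24 of 29 for shade in bbx28-5, 18 of 23 for shade in Col-0, 2 of 3 for genotype in white light, 4 of 12 for genotype in shade and 0 of 2 for the difference of responses kept their direction and call under every alternative. Under total-count scaling, 13 members were lower for shade in bbx28-5, 2 higher and 7 lower for genotype in shade, and 1 higher for the difference of responses. The shares of all tested genes in these calls were 45.9%, 7.65%, 33.2% and 2.43%. For genotype in shade, SAUR16 and SAUR78 were then called lower in bbx28-5 than in Col-0, at -0.28 (adjusted p = 0.0491) and -0.30 (adjusted p = 0.0272). Among members whose mean log2 CPM was 1 or more, 5 were lower for shade in bbx28-5 and 1 was lower for genotype in white light, since fewer members enter. With only the 6 libraries compared, 2 members were higher and 4 lower for genotype in white light, and 2 higher for genotype in shade. limma-voom called 1 member higher for the difference of responses. Apart from the member and library limits, the cause was not tested. Leaving out 1 library gave 0 to 2 members higher for genotype in white light, 3 to 11 higher for genotype in shade, and 0 to 3 higher and 0 to 3 lower for the difference of responses. The lowest values for genotype in shade came without replicate 2 or 3 of Col-0 in shade or replicate 2 of bbx28-5 in shade, and the 3 lower ones without that last library. With the replicate block, 21 members were higher and 8 lower for shade in bbx28-5, 15 and 8 for shade in Col-0, 1 and 2 for genotype in white light, 6 and 3 for genotype in shade, and 2 and 0 for the difference of responses. Depth limits the 6 untested members, each with 37 or fewer counts over 12 libraries.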
